A study of Mus musculus with 6 samples.

Results

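The BCL2 family decides whether a cell keeps the outer membrane of its mitochondria intact or opens it and dies by apoptosis. Its pro-survival proteins (BCL2, BCL-XL, BCL-W and MCL1) hold pore-forming effectors such as BAK in check. The effectors BAK and BOK permeabilise the membrane. The BH3-only proteins (BIM, BID, BAD and BMF) bind through a short helix, the BH3 region, to release or activate effectors such as BAK. Part of the family also sits at the endoplasmic reticulum, where BCL2, BCL-XL and BOK bind the IP3 receptors that release stored calcium, the ion that ORAI channels let back into the cell.

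Transcripts of 10 family genes were followed, chosen by name and mapped from the Entrez numbers of the deposited table of 26532 genes. They were the pro-survival genes Bcl2 (Entrez 12043), Bcl2l1 (12048), Bcl2l2 (12050) and Mcl1 (17210), the BH3-only genes Bcl2l11 (12125), Bid (12122), Bad (12015) and Bmf (171543), and the effector genes Bak1 (12018) and Bok (51800). All 10 were found, and all 10 passed the filter on low counts that left 13764 genes. RNA had been sequenced from mouse embryonic fibroblasts (MEFs), fibroblast-like cells grown out of embryos, labelled by cell type as mesenchymal stem cells and by treatment as osteogenic differentiation in every library. The GFP group (3 libraries, genotype labelled WT) carried an adenovirus for green fluorescent protein, and the ORAI2 group (3 libraries, genotype labelled ORAI2 Overexpression) an adenovirus for ORAI2, a pore subunit of store-operated calcium channels. The series title concerns BMP9-induced differentiation and the ERK1/2 and AKT pathways, but no sample label mentions BMP9, a culture time or separate cultures. The p-values accordingly reflect the spread among these libraries alone, and that spread may be technical.

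Totals lay between 18526884 and 18844436 counts per library. Orai2, the supplied gene, rose from 50.2 ± 2.22 to 2977 ± 623 CPM (counts scaled to 1000000 per library; SD, n = 3 each). Fibroblast markers Col1a1, Vim, Dcn and Pdgfrb were measured in every library, while Thy1, a surface marker often used for mesenchymal stem cells, had at most 3 counts in a library. Of 8 fibroblast markers 7 were tested and all 7 were lower at an adjusted p under 0.05 (edgeR), beside 22.1% of all tested genes. The summed level of the fibroblast markers went from between 2269 and 2346 CPM in the GFP libraries to between 1203 and 1320 CPM in the ORAI2 libraries. Summed macrophage markers went from between 51.9 and 55.6 CPM to between 26.7 and 35.9 CPM, through Mpeg1 and Cd14, whereas Ptprc and Csf1r stayed at or under 0.21 CPM. Summed endothelial markers went from between 6.42 and 8.88 CPM to between 16.3 and 17.5 CPM, through Kdr and Vwf, with Pecam1 at or under 0.38 CPM and Cdh5 at or under 0.16 CPM. Summed epithelial markers went from between 2.74 and 3.74 CPM to between 4.21 and 5.12 CPM, through Grhl2, with Epcam at 0 counts in every library and Cdh1 at or under 5. Summed neural and glial markers went from between 123 and 133 CPM to between 154 and 167 CPM, through Nes, while Mbp fell. The part of these shifts in the results on the BCL2 family was not tested, and in bulk RNA fewer cells of a type and less RNA per cell cannot be told apart.

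What the proteins share is visible in the coding sequences. The core of the BH3 region was searched in the longest annotated coding sequence of each gene (GENCODE M21, GRCm38) as a codon for leucine or methionine, 3 further codons, a codon for glycine, alanine or serine, and a codon for aspartate. Each of the 10 members held exactly 1 match, although the pattern is loose and 39.0% of 21500 mouse coding sequences held at least 1. The stretches of the 6 members whose transcripts changed are shown, 16 codons (48 bases) each, 5′ to 3′, with the opening codon of the core and its closing pair in capitals.
Mcl1: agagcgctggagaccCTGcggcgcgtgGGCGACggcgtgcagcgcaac
Bcl2l1: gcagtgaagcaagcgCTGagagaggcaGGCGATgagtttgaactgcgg
Bcl2l2: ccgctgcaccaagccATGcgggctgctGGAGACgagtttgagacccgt
Bcl2l11: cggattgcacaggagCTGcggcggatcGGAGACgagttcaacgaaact
Bad: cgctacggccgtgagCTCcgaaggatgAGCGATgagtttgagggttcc
Bmf: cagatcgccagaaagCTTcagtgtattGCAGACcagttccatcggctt

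In 9 of the 10 members the core opened with a leucine codon, and Bcl2l2 had a methionine codon there. The codon before that for aspartate was one for glycine in 8 members, for serine in Bad and for alanine in Bmf. The core lay at residues 90 to 95 of 233 in Bcl2l1, 194 to 199 of 331 in Mcl1, 150 to 155 of 196 in Bcl2l11 and 224 to 229 of 271 in Bmf, counted in the longest coding sequence. Over the stretch, Bcl2l1 and Bcl2l2 matched at 10 of 16 encoded residues, the most of any pair, and Bmf matched Bok and Bcl2l2 at 2, the fewest. The pattern allowed the methionine, serine and alanine codons of Bcl2l2, Bad and Bmf. A match in all 10 members, pro-survival and pro-death, is therefore a description and no test of a shared element. For expression, the table gives 1 count per gene. Splice forms, such as the long and short products of Bcl2l1, Mcl1 and Bcl2l11, were not separated.

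With ORAI2, transcripts of 3 pro-survival genes rose, and those of 2 BH3-only genes fell while 1 rose. Bmf, which encodes a BH3-only protein known for killing cells that lose attachment, showed by far the widest difference, 4.61-fold lower. Bcl2l1, which encodes BCL-XL, was higher by 50.2% of its GFP mean, and the other members that passed differed by at most 1.21-fold. At an adjusted p of 0.05 (edgeR), 4 members were higher and 2 lower, against 20.8% and 22.1% of all tested genes (42.9% in either direction). The groups did not overlap for 7 members, 5 higher and 2 lower, where this held for 52.9% of all tested genes (26.6% higher and 26.4% lower). The counts are therefore not read as particular to the family: with so many genes called, the sizes of the differences carry the description. The median log2 fold change was 0.02 over the 10 members and -0.0018 over all tested genes.

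**Figure D1:**
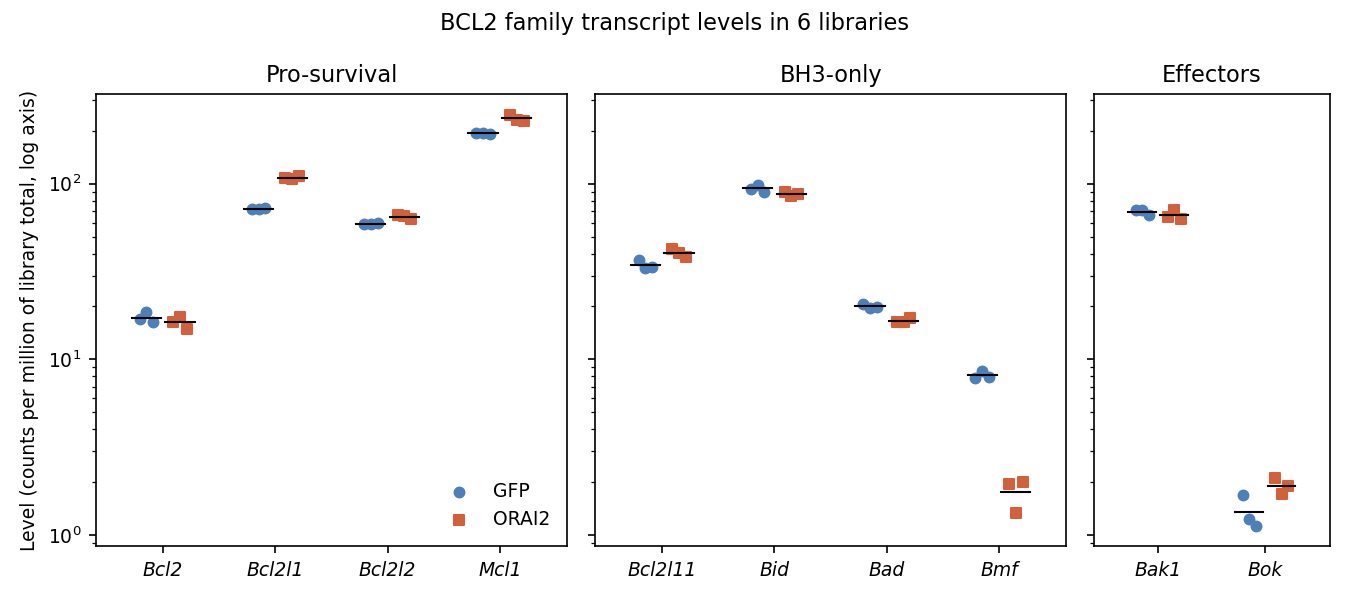
Level of each member in every library, in CPM on a log axis, by role of the protein. Circles are GFP libraries, squares ORAI2 libraries and bars group means (n = 3). Bmf is separated most, with GFP libraries from 7.80 to 8.61 CPM and ORAI2 libraries from 1.34 to 2.00 CPM.

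Among the pro-survival genes, Bcl2l1 was at 72.1, 71.7 and 72.5 CPM in GFP replicates 1 to 3 and at 108, 106 and 111 CPM in ORAI2 replicates 1 to 3. The GFP libraries were nearly equal, and all ORAI2 libraries lay far above them. The log2 fold change was 0.58 (SE 0.04, adjusted p = 1.61e-07), and 11.2% of all tested genes changed by as much or more in either direction. Mcl1 encodes a short-lived protein on which many cells depend for survival. Its levels were 195, 194 and 193 CPM with GFP and 248, 231 and 229 CPM with ORAI2. ORAI2 replicate 1 was the highest, and the groups did not overlap (log2 fold change 0.28, SE 0.04, adjusted p = 9.40e-05). Bcl2l2, the gene of BCL-W, was at 59.0, 59.2 and 59.8 CPM with GFP and 66.0, 65.2 and 62.6 CPM with ORAI2.

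The Bcl2l2 difference was small but without overlap (1.09-fold, log2 fold change 0.12, SE 0.04, adjusted p = 0.0345). It did not pass with DESeq2 (adjusted p = 0.118), with no low-count filter (0.0763), or without GFP replicate 1, 2 or 3 or ORAI2 replicate 1 or 2 (0.0752, 0.0954, 0.0569, 0.102 and 0.0737). Bcl2, the founding member of the family, was at 16.9, 18.5 and 16.4 CPM with GFP and 16.4, 17.3 and 14.95 CPM with ORAI2. These ranges overlapped, and the log2 fold change of -0.09 (SE 0.08, adjusted p = 0.392) did not pass. Bcl2 also shares 6.09% of its exonic bases with an antisense gene, D630008O14Rik, and Bcl2l2 shares 13.3% with the read-through gene Gm20521. Reads in stretches shared on the same strand cannot be told apart. Those shared by genes on opposite strands may not be either, since strand use in counting was not given in the sources used here for this table.

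**Figure D2:**
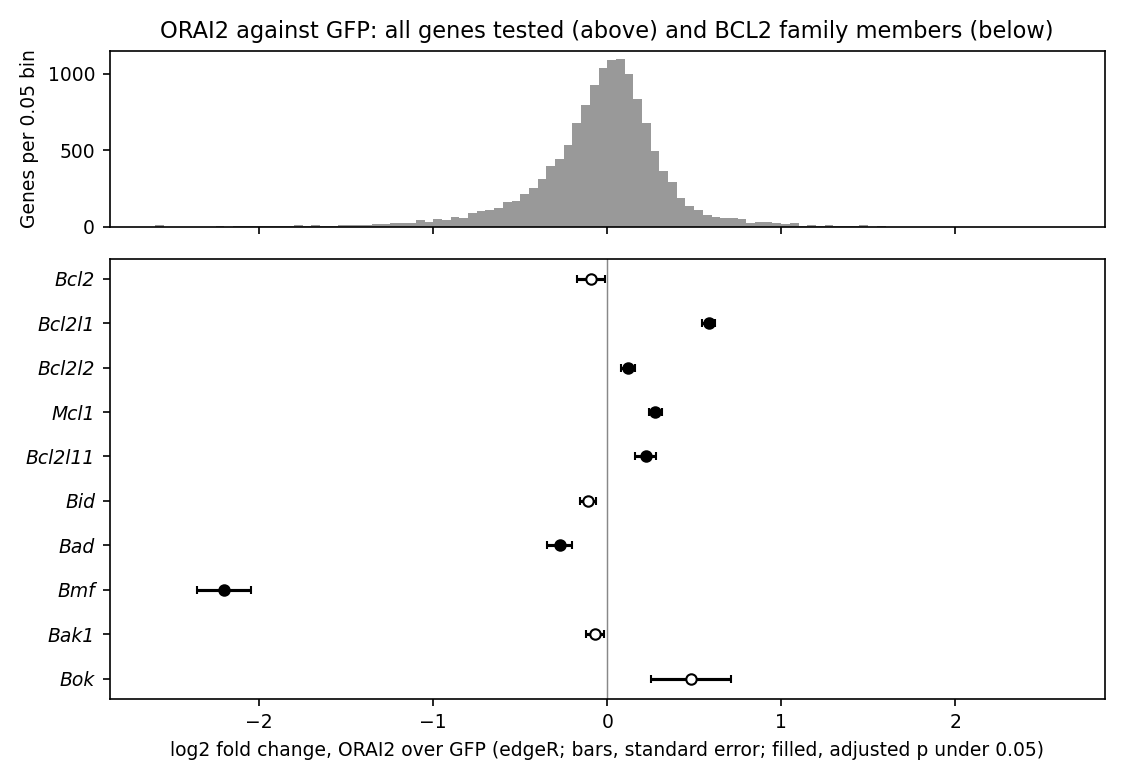
The lower panel gives the log2 fold change, ORAI2 over GFP, of the 10 members with its standard error, filled where the adjusted p was under 0.05. The upper panel gives the number of tested genes per bin of log2 fold change, with values beyond 2.6 in either direction set into the end bins. Bmf at -2.20 lies in the far tail, and the other members lie within the body of the distribution, Bcl2l1 (0.58) toward its upper edge.

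Among the BH3-only genes, Bmf was at 7.80, 8.61 and 7.91 CPM with GFP and 1.94, 1.34 and 2.00 CPM with ORAI2. These were 147, 161 and 147 counts against 36, 25 and 37. Every ORAI2 library lay below every GFP library by a wide margin. The log2 fold change was -2.20 (SE 0.15, adjusted p = 3.16e-07), and 0.269% of all tested genes changed by as much or more in either direction. Of the authors' deposited TPM values (transcripts scaled to the library total), the columns named 1 and 2 held 3.65 and 3.48 for GFP and 0.63 and 0.82 for ORAI2. The columns named 3 held 13.25 for GFP and 3.05 for ORAI2. Over all 6 TPM columns the log2 fold change was -2.13 (SE 0.74) and did not pass (limma, adjusted p = 0.447).

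Bad encodes a BH3-only protein that AKT and ERK-pathway kinases inactivate by phosphorylation. Its levels were 20.7, 19.7 and 19.7 CPM with GFP and 16.2, 16.4 and 17.2 CPM with ORAI2. The groups did not overlap, and Bad was 1.21-fold lower (log2 fold change -0.27, SE 0.07, adjusted p = 0.00692). It shares 20.5% of its exonic bases with Gpr137 on the opposite strand. Bcl2l11, the gene of BIM, is known to be induced by FOXO factors, while ERK marks the BIM protein for degradation. The gene was at 36.6, 33.2 and 33.7 CPM with GFP and 42.4, 40.5 and 38.2 CPM with ORAI2.

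Bcl2l11 therefore moved against Bmf and Bad. It was 1.17-fold higher without overlap (log2 fold change 0.22, SE 0.06, adjusted p = 0.00914), though not past the threshold without GFP replicate 2 (adjusted p = 0.0515). Bid encodes the protein that caspase-8 cleaves to carry a death receptor signal to the mitochondria. It was at 93.9, 98.8 and 89.7 CPM with GFP and 89.9, 85.1 and 87.6 CPM with ORAI2. The ranges just overlapped, and the log2 fold change of -0.11 (SE 0.05, adjusted p = 0.0698) did not pass. Without GFP replicate 3 it did (adjusted p = 0.0163). Bid shares 17.7% of its exonic bases with Bcl2l13, which lies on the opposite strand and itself fell.

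Of the effectors, neither passed. Bak1, whose protein forms pores in the mitochondrial outer membrane, was at 70.6, 71.2 and 66.5 CPM with GFP and 64.9, 70.7 and 62.9 CPM with ORAI2. The ranges overlapped (log2 fold change -0.07, SE 0.05, adjusted p = 0.288). Bak1 shares 7.35% and 18.2% of its exonic bases with a pair of gene models on the opposite strand, both named Ggnbp1. Bok, an effector found largely at the endoplasmic reticulum, was scarce, with 32, 23 and 21 counts under GFP and 39, 32 and 35 under ORAI2. Its lowest ORAI2 library (1.71 CPM) lay just above its highest GFP library (1.70 CPM). The log2 fold change of 0.48 (SE 0.23, adjusted p = 0.111) did not pass, except without GFP replicate 1 (0.69, adjusted p = 0.0498).

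Levels were set in order per length, as CPM per kilobase of the longest annotated coding transcript. In the GFP libraries Mcl1 was the most abundant member, at 56.8 ± 0.33 CPM per kilobase (SD, n = 3), followed by Bid at 43.0 ± 2.08. Bak1 (29.1 ± 1.06) and Bcl2l1 (28.1 ± 0.16) came next and overlapped. Then came Bcl2l2 (15.6 ± 0.12), Bad (13.1 ± 0.37), Bcl2l11 (6.85 ± 0.36), Bcl2 (2.40 ± 0.15), Bmf (1.75 ± 0.09) and Bok (0.92 ± 0.21), with no overlap between neighbours. The order of Bcl2l2 and Bad was the other way in the deposited TPM, and the reason was not tested. In the deposited TPM columns named GFP-1 and GFP-2, Bad was at 49.51 and 49.71 TPM and Bcl2l2 at 33.24 and 32.23 TPM. Bcl2, after which the family is named, was among the 3 scarcest of the 10 members.

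In the ORAI2 libraries Mcl1 stayed at the top (69.0 ± 3.03 CPM per kilobase), and Bcl2l1 (42.2 ± 0.95) stood just above Bid (40.0 ± 1.11) and clear of Bak1 (27.7 ± 1.70). Bmf (0.38 ± 0.08) fell below Bok (1.29 ± 0.13) to the last place. The order of Bcl2l1 and Bid was the other way in the authors' deposited TPM columns named ORAI2-1 and ORAI2-2. There Bid was at 92.7 and 96.17 TPM and Bcl2l1 at 83.57 and 88.19 TPM, and the reason was not tested. In the same deposited TPM columns Bmf was below Bok as well, at 0.63 and 0.82 against 2.38 and 2.65 TPM.

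Per kilobase, the 4 pro-survival genes made up 52.1% ± 0.86 of the summed level of the 10 members in the GFP libraries and 59.6% ± 0.48 in the ORAI2 libraries (SD, n = 3; a description, with no test). These 10 members leave out 15 further family genes, among them the effector gene Bax, which rose from 71.7 to 84.2 CPM on average. Of those further genes 9 were tested, and 3 rose and 3 fell. The shares are therefore those of the 10 members and not the balance of the whole family. The summed level of the 10 members went from 198 ± 3.41 to 219 ± 4.17 CPM per kilobase, so a share can fall without a fall in level. The pro-survival sum went from 103 ± 0.18 to 130.4 ± 3.33 CPM per kilobase, the BH3-only sum from 64.7 ± 2.16 to 59.2 ± 1.30, and the effector sum from 30.0 ± 1.19 to 29.0 ± 1.61, with ranges that overlapped for the effectors. Within the shares, Bcl2l1 went from 14.2% ± 0.32 to 19.3% ± 0.63 and Mcl1 from 28.8% ± 0.40 to 31.5% ± 0.78. BH3-only genes went from 32.7% ± 0.54 to 27.1% ± 0.42 and the effectors from 15.2% ± 0.35 to 13.3% ± 0.79. Within the BH3-only group the share of Bid went from 21.8% to 18.3% and that of Bad from 6.62% to 4.96%. Bmf, for all its fold change, was 0.884% of the sum with GFP and 0.173% with ORAI2. The ratio of Bcl2l11 to Bmf per kilobase went from between 3.56 and 4.32 with GFP to between 17.6 and 27.9 with ORAI2. All these shares depend on the lengths used, which the SD does not cover. In the deposited TPM columns named GFP-1 and GFP-2, Bid (109.22 and 99.34 TPM) came nearer to Mcl1 (110.44 and 110.66 TPM) than per kilobase. In the column named GFP-3 Bid lay farther below Mcl1, at 69.29 against 130.22 TPM. The pro-survival share of 52.1% with GFP is given for these counts and lengths only.

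**Figure D3:**
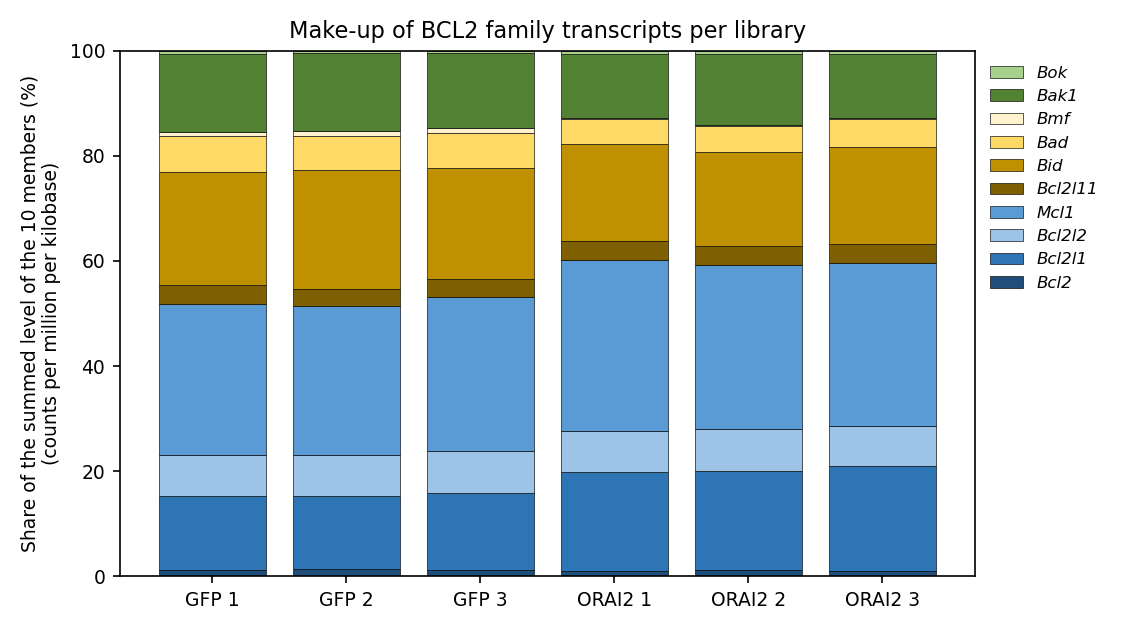
Each bar is 1 library, and the segments are the shares of the 10 members in their summed level per kilobase, in percent. Blue segments are pro-survival, yellow and brown BH3-only and green effector genes. The blue part ends near 52% in the GFP libraries and near 60% in the ORAI2 libraries. The shares depend on the transcript lengths used and leave out Bax and the other further family genes.

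Promoters were searched for 6 short motifs, on both strands, in the 250 bases before each transcription start in RefSeq (GRCm38.p6), which gave 16 windows for the 10 members. The ETS motif CCGGAAG, read by factors downstream of ERK, was found in Mcl1 and Bcl2l11, in 2 of 16 windows against 6.91% of all 32851 windows. The FOXO motif GTAAACA was found in Bcl2l11 only (3.17% of all windows). No member window held the AP-1 motif TGANTCA (6.75%), the CRE TGACGTCA (1.55%) or the E-box CACGTG (6.02%), and 8 held the GC box GGGCGG (32.7%). None of the 6 motifs was found in the 3 windows of Bmf or the 3 of Bcl2l1. A match is a description of letters, not a bound site. The windows of the 2 members that rose and held the ETS motif are shown, each on the plus strand, with that motif in capitals.
Mcl1, chr3:95658471-95658720 (GRCm38.p6): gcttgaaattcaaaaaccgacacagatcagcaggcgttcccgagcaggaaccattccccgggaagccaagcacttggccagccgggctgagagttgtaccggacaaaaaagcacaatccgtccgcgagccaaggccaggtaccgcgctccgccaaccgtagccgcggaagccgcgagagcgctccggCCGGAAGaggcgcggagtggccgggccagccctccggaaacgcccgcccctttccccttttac
Bcl2l11, chr2:128125788-128126037 (GRCm38.p6): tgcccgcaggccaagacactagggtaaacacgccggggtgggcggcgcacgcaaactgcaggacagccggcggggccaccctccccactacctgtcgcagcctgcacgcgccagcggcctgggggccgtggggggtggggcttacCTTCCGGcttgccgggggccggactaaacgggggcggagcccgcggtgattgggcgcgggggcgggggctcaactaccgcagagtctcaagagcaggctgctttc

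In Mcl1 the motif began 63 bases before the start. In Bcl2l11 it lay on the opposite strand and began 105 bases before the start, and the FOXO motif began 227 bases before it. Both windows were rich in G and C, at 64.4% and 72.0% against a median of 52.4% over all windows. The motif shares over all windows were not matched for G and C. Bcl2l11 had another start whose window held neither the ETS nor the FOXO motif.

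The rest of the family moved both ways. Of 15 further family genes listed, 12 were found in the table and 9 were tested, of which 3 rose, 3 fell and 3 did not pass, beside 20.8% higher and 22.1% lower over all tested genes. Those that rose were pro-death genes. Bax, the main effector beside BAK, was at 67.9, 71.6 and 75.6 CPM with GFP and 81.6, 86.7 and 84.5 CPM with ORAI2 (1.17-fold higher, adjusted p = 0.00119). Pmaip1, the gene of the BH3-only protein NOXA that neutralises MCL1, was at 32.2, 32.3 and 30.4 CPM and at 37.9, 40.6 and 37.5 CPM (1.22-fold higher, adjusted p = 0.00117). Hrk, a BH3-only gene best known from neurons, was scarce, from 0.89 to 2.46 CPM on average (2.74-fold higher, adjusted p = 1.30e-04). In all 3 genes every ORAI2 library lay above every GFP library.

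Those that fell were Bnip3 (1.61-fold lower, adjusted p = 1.95e-05), Bcl2l13 (1.30-fold lower, adjusted p = 1.46e-05) and, named after its value was seen, Bnip3l (1.08-fold lower, adjusted p = 0.0457). The Bnip3l call was lost with RLE scaling (adjusted p = 0.0502), with no low-count filter (0.0677), with DESeq2 (0.0771) and in 5 of the 6 fits that left out 1 library (0.0563 to 0.193); without it 2 of the 9 were lower. Their proteins are known for the removal of mitochondria by autophagy. Bbc3, the gene of the p53-induced BH3-only protein PUMA, was at 13.3, 15.8 and 13.2 CPM with GFP and 14.4, 14.7 and 11.9 CPM with ORAI2. The groups overlapped (log2 fold change -0.05, SE 0.10, adjusted p = 0.735). Bik, Bcl2l10 and Bcl2l14 did not reach the count filter, the highest library holding 7 counts.

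Of 15 genes downstream of BCL2 proteins, those of the mitochondrial pore, the apoptosome (the complex that activates caspases) and the caspases, 2 rose, 1 fell and 12 did not pass, beside 42.9% called over all tested genes. Cycs, the gene of cytochrome c, went from 145 ± 3.50 to 168 ± 9.87 CPM (1.16-fold higher, adjusted p = 0.00173). Htra2, a protease released from mitochondria, was 1.21-fold lower (adjusted p = 1.63e-04). Casp9, the caspase that the apoptosome activates, had a log2 fold change of -0.03 (SE 0.09). Of 5 inhibitors of apoptosis 3 fell, 1 rose and 1 did not pass, against 22.1% lower and 20.8% higher over all tested genes. Birc2 and Birc3, which encode the ubiquitin ligases cIAP1 and cIAP2, were 1.38-fold and 1.31-fold lower (adjusted p = 5.51e-05 and 8.17e-04), and Birc5 (survivin), a gene of dividing cells, was 1.22-fold higher (adjusted p = 0.00111). Xiap, which inhibits caspases directly, was 1.07-fold lower (adjusted p = 0.0477), a call lost with RLE scaling (0.0546), with no low-count filter (0.0782), with DESeq2 (0.0983) and in 5 of the 6 fits that left out 1 library; without it 2 of the 5 were lower.

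Of 9 death receptor genes 3 fell, 1 rose and 5 did not pass; 4 of 9 is near the 42.9% of all tested genes and is not read as a result about the list. Fas, a receptor that triggers apoptosis, went from 7.45 ± 1.23 to 4.82 ± 0.98 CPM, a 1.55-fold fall (adjusted p = 0.00690). The TNF receptor gene Tnfrsf1a and its adaptor Tradd were 1.13-fold and 1.24-fold lower (adjusted p = 0.00351 and 0.0128). The Tradd call was lost with DESeq2 (adjusted p = 0.0682) and without GFP replicate 1 or ORAI2 replicate 1 (0.0521 and 0.0530). Ripk3, a kinase of necroptosis, was 1.11-fold higher (adjusted p = 0.0454), a call lost with DESeq2 (0.0898), with no low-count filter (0.0721) and in 4 of the 6 fits without 1 library.

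Of 15 partners and regulators of BCL2 proteins 3 rose, 4 fell and 8 did not pass, again near the 42.9% of all tested genes. Mtch2, the mitochondrial receptor for BID, and Pim3, a kinase that phosphorylates BAD, were 1.17-fold and 1.15-fold higher (adjusted p = 1.53e-04 and 0.00171). Ywhaz, a 14-3-3 protein of the kind that holds phosphorylated BAD in the cytosol, and Bag3, a co-chaperone, were 1.14-fold and 1.27-fold lower (adjusted p = 9.52e-04 and 0.00118). The dynein light chain genes Dynll1 and Dynll2, named after their values were seen because their proteins hold BIM and BMF on the cytoskeleton, went apart: Dynll1 was 1.11-fold lower and Dynll2 1.10-fold higher (adjusted p = 0.0102 and 0.00408). The Dynll1 call was lost without ORAI2 replicate 1 (adjusted p = 0.0568). Usp9x and Huwe1, which remove and add ubiquitin on MCL1, had log2 fold changes of -0.02 and -0.03 (SE 0.04 and 0.05). The median log2 fold change of the 5 lists lay between -0.10 for the inhibitors of apoptosis and -0.0067 for the pore, apoptosome and caspase genes, beside -0.0018 over all tested genes.

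**Figure D4:**
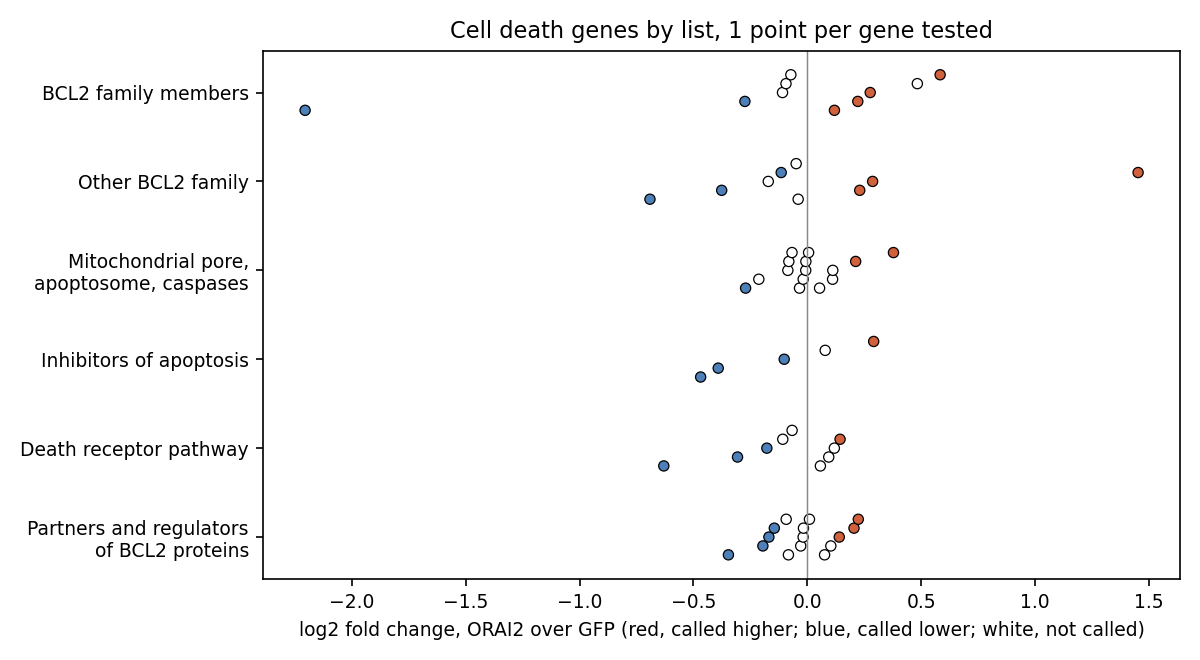
Each point is 1 tested gene, placed by its log2 fold change, ORAI2 over GFP, with a row per list. Red points passed as higher, blue as lower, and white did not pass. Bmf (-2.20) and Hrk (1.45) lie farthest from 0, and most genes of the lists lie within 0.5 of it.

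Across the processing settings tried, the size of the Bmf difference moved little, and the members near 0 (Bcl2, Bid and Bak1) stayed below 0.

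**Figure D5:**
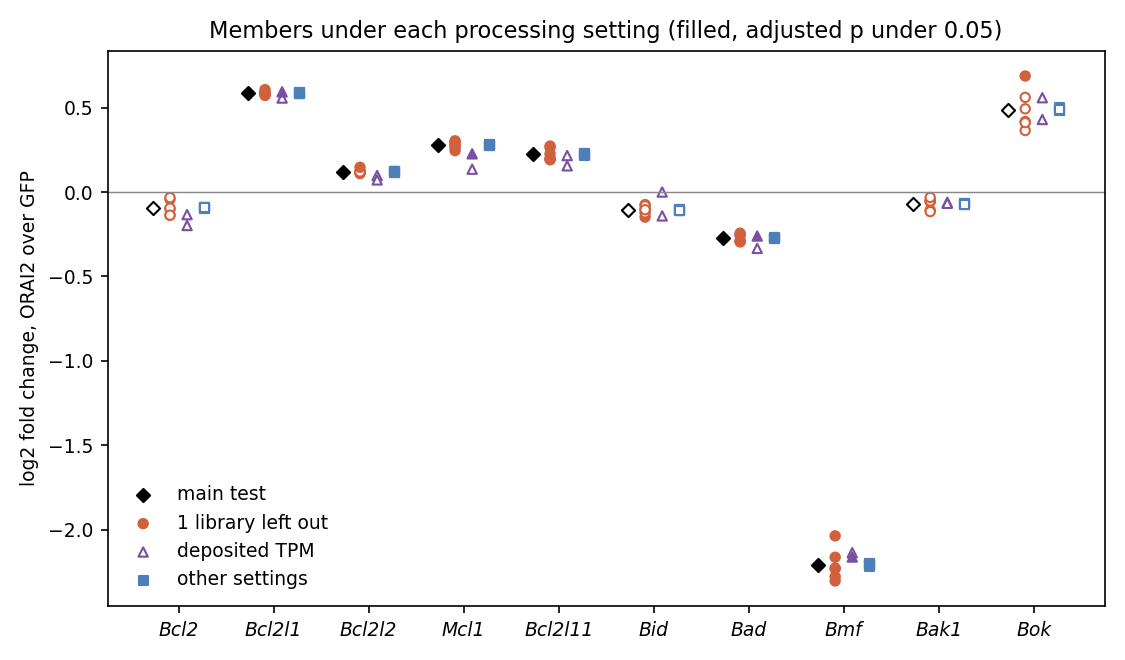
Log2 fold change of each member under the main test (diamonds), with 1 library left out (circles), in the deposited TPM columns (triangles) and under the other settings (squares), filled where the adjusted p was under 0.05. No member changed direction, and Bmf stays between -2.30 and -2.04.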

How the data were processed

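Per the file headers, the authors deposited 1 table that holds, for each gene and library, a count in whole numbers and a TPM. The submitters' processing notes name HISAT2 (2.0.4), Salmon (1.4.0) and GRCm39. What each was used for, the annotation, strand use and any rounding of counts: not given in the sources used here. By correlation, TPM named 1 and 2 matched counts numbered 2 and 3 of their group better than counts of their own number, and both columns named 3 matched counts of GFP replicate 1 best, so TPM entered no main result.

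Symbols came from RefSeq (GRCm38.p6), which matched 25631 of 26532 Entrez numbers (96.6%); 1882 genes had no count. ORAI2 was tested against GFP with edgeR 4.0.16 in R 4.3.3 (quasi-likelihood F-test, TMM, filterByExpr with a minimum count of 10), with Benjamini-Hochberg adjustment over all 13764 tested genes and a threshold of 0.05. TMM factors lay between 0.990 and 1.01. Levels are CPM without TMM scaling, and fold changes come from the fit. Alternatives were other scalings and filters, DESeq2 1.42.0, limma 3.58.1 (voom, and log2 of TPM plus 0.1), the replicate number as a block and each library left out. On simulated counts over 13764 genes, 200 genes were raised in ORAI2 over GFP, by 1.5-fold or 2-fold, and none was lowered. Of these changes 75% at 1.5-fold and 89% at 2-fold were recovered, and 7.34% of calls were false. The data held calls in both directions, 42.9% of tested genes, so these rates need not hold for them.

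The members and lists were chosen with earlier results of these data known. All members are named; of each other list, up to 4 called genes with the smallest p, and Bax, Bbc3 and Pmaip1. Not every gene this rule takes is reported here. Libraries of a group differed by more than sampling noise (chi-square per gene 2.54 to 4.50). Per-kilobase levels used GENCODE M21 transcript lengths.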

Additional observations from a re-analysis of the deposited data

How the results depend on the processing

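Under other scalings, filters, count tests and left-out libraries, all 10 members kept their direction, and the calls of Bcl2l1, Mcl1, Bad and Bmf kept their side of the threshold. Leaving out 1 library gave between 2 and 4 members higher, between 2 and 3 lower and between 4 and 6 in all, and between 4943 and 5661 genes called; the lowest count of members higher, 2, came without GFP replicate 2, where Bcl2l2 and Bcl2l11 did not pass. DESeq2 called 4825 genes and 5 members. The 6 deposited TPM columns gave 4 genes by limma, 2 higher and 2 lower, and 0 members, 0 higher and 0 lower, with 1280 genes and 2 members at an unadjusted p under 0.05. With the TPM columns named 1 and 2, an alternative chosen after seeing the data, limma called 3214 genes, 1246 higher and 1968 lower, and 4 members, 2 higher and 2 lower. Bbc3, not called, turned direction in TPM (log2 fold change 0.20) and without GFP replicate 2 or ORAI2 replicate 3 (0.037 and 0.048; from -0.099 to 0.048 over the left-out libraries). With the replicate number as a block 6246 genes and 6 members were called, and no member's call changed. Same-numbered libraries correlated at 0.14, 0.073 and 0.13 in their deviations from group means, and 6 of 6 correlated best with their own number, a hint from the data and not the design. Bok could not be tested at 5 CPM in 3 libraries. Counts were low for Bok and Hrk, at most 39 and 48 in a library.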
